A study of Mus musculus with 43 samples.

Results

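Regulators that set or hold T-cell identity were followed through RNA sequencing of sorted mouse bone marrow. They were Tcf7 (ENSMUSG00000000782), Lef1 (ENSMUSG00000027985), Bcl11b (ENSMUSG00000048251), Themis (ENSMUSG00000049109), Gata3 (ENSMUSG00000015619), Tox (ENSMUSG00000041272), Ets1 (ENSMUSG00000032035) and Satb1 (ENSMUSG00000023927). They were chosen by name, with earlier results of these data known. Counts of members set beside shares of all genes below are therefore descriptive and no test of the set. Each of the 8 symbols matched 1 row among the 56941 gene identifiers counted, so all 8 members are described. In the study, 5000000 whole marrow cells with the JAK2V617F mutation, the activating kinase change of myeloproliferative neoplasms, were put into wild-type CD45.1 mice that had received no conditioning. The donor cells carried the other allele of the leukocyte antigen CD45, CD45.2, which let both populations be sorted from one mouse. The 7 groups were donor CD45.2 cells (n = 7), host CD45.1 cells of the same 7 mice, CD45.1 cells of untransplanted wild-type controls (n = 8), stroma-enriched cells of the 7 transplanted mice and of the 8 controls, and CD45.1 cells bearing the myeloid integrin CD11b from 3 other transplanted mice and 3 other controls. The first 5 groups were taken 7 months after transplantation and the CD11b groups after 52 weeks. The stroma gate left out cells with CD45 or with lineage markers, among them CD4 and CD8. Donor, host and transplanted stroma groups held 4 males and 3 females each, the CD45.1 and stroma controls 4 of each sex, and the CD11b groups males only. The donor, host and control CD45 sorts name no lineage gate, so each was read as a mixture of leukocytes, in which fewer cells of a type and less RNA per cell cannot be told apart.

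T cells are made in the thymus from marrow-derived progenitors. Notch signals there switch on Tcf7, whose protein TCF-1 opens the T-cell programme, followed by Gata3 and then Bcl11b, which closes the other fates. Lef1 is the close relative of TCF-1, Themis acts downstream of the T-cell receptor during thymic selection, Tox is needed for the CD4 lineage and returns in exhausted T cells, and Ets1 and Satb1 are broader lymphoid regulators, a transcription factor and a chromatin organiser that are also used outside T cells. Marrow itself holds a small pool of mature T cells that recirculate through it.

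Library totals lay between 15713119 and 19683698 counts in the CD45-sorted libraries, between 41210646 and 143228988 in stroma and between 32478800 and 44853593 in CD11b cells. In the CD11b libraries 70.3% to 80.0% of the counts from 10 to 199 were even numbers, against 49.3% to 52.2% in the other 37 libraries; what this does to their depth was not tested. The labels of 1 library, from animal N204, disagree, as its title says donor and a second label says recipient. It is treated as donor here, and without it 8 of 8 members still passed in donor cells against controls and 7 of 8 in donor against host cells. Each library is the sort of 1 animal. The 10 myeloid markers summed to medians of 105800 TPM (transcripts per 1000000, a level corrected for gene length) in donor, 90160 in host and 123300 in control CD45.1 cells, far above the lymphocyte markers, while the 8 stromal markers reached medians of 2235 TPM in transplanted stroma and 2408 in control stroma.

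In the CD45-sorted and CD11b groups the members fell into a pair of abundant genes, Ets1 and Satb1, and 6 scarcer ones. Ets1 made up a median of 74.1% of the 8 members' summed TPM in donor cells, 54.7% in host cells and 54.3% in control CD45.1 cells. Satb1 made up 22% in donor cells, 26.9% in host cells and 28.2% in control cells, and in the CD11b groups Ets1 held 60.9% to 64.9% and Satb1 31% to 36.5%. The other 6 had medians of at most 15.76 TPM in any CD45-sorted or CD11b group. In stroma Lef1 took the place of Satb1, with median shares of 23.5% in transplanted and 22.1% in control stroma, where Satb1 held 5.67% and 5.43%.

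**Figure D1:**
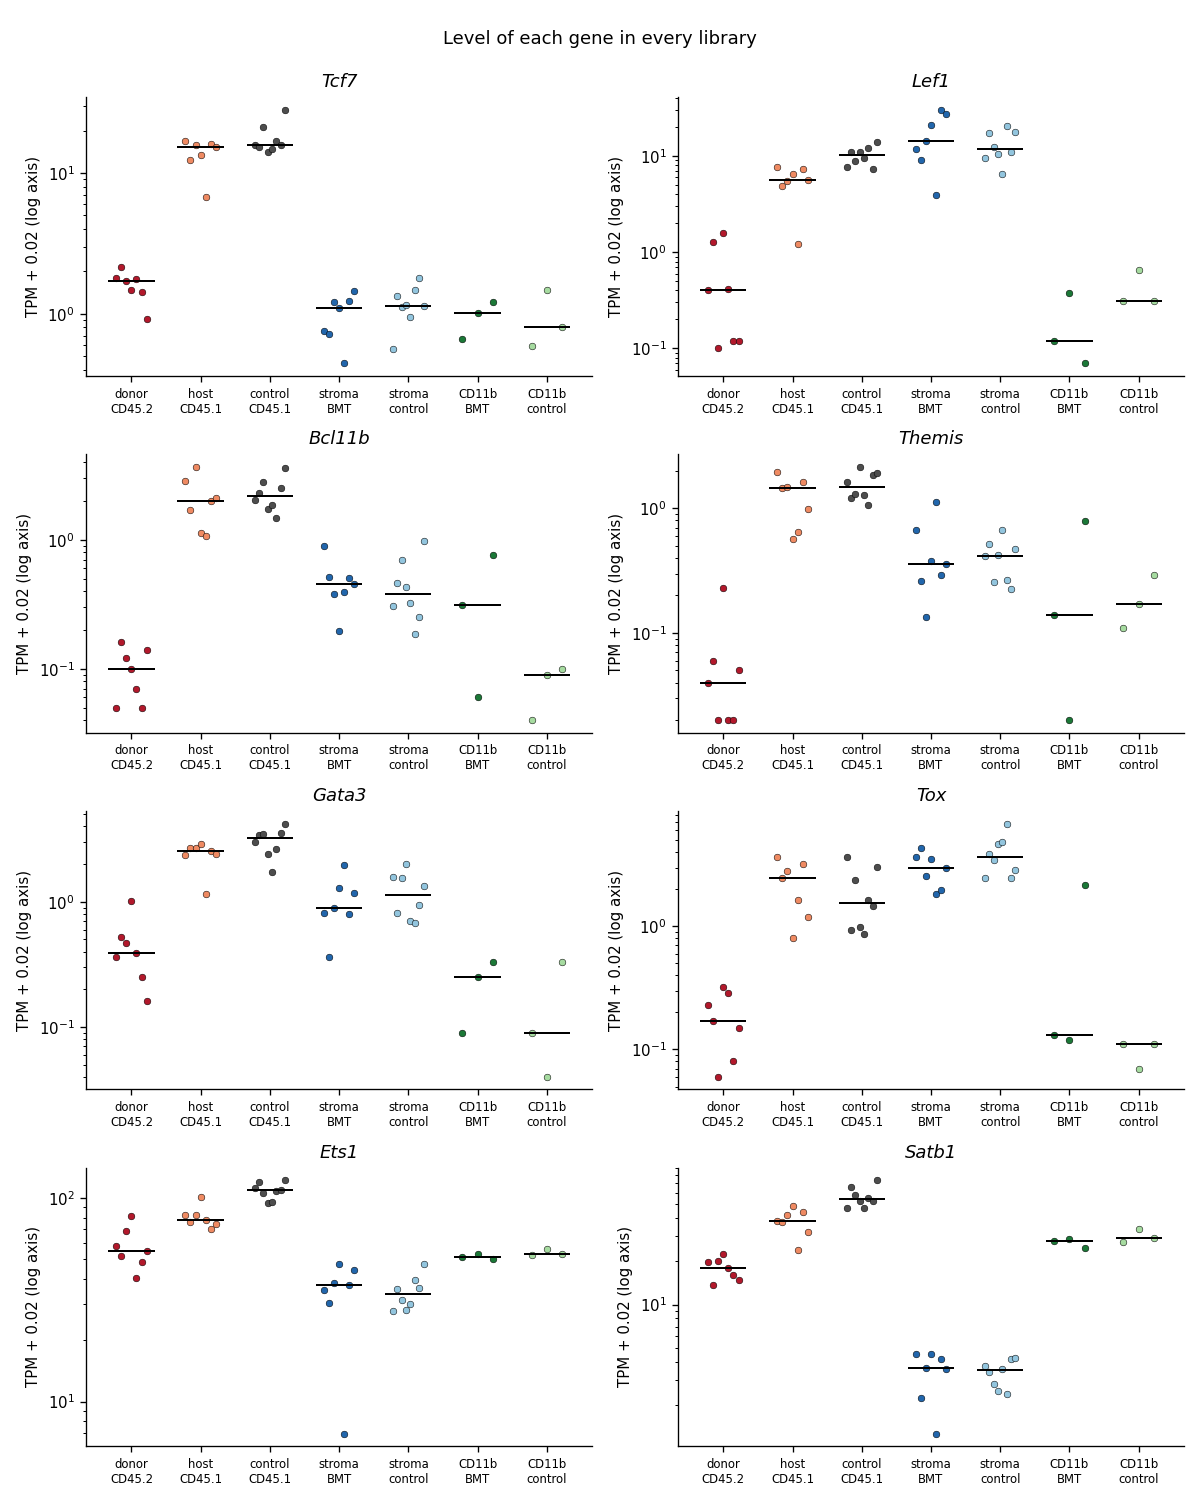
TPM plus 0.02 of each of the 8 genes on log axes, 1 point per library and a bar at the group median, for donor, host and control CD45-sorted cells, stroma and CD11b cells. Donor cells have the lowest median of these 3 groups for all 8 genes, with a narrow gap for Ets1 (medians of 55.09, 78.29 and 108.8 TPM) and a wide one for Themis (0.02, 1.45 and 1.455 TPM).

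Ordered by median TPM, control CD45.1 cells stood highest for 6 of the 8 genes, all but Lef1 and Tox, and host cells came next for these 6. The ranges of control and host cells overlapped for all 8. Tcf7 and Bcl11b then dropped to ranges apart from those of host cells, to 1.69 TPM in donor cells for Tcf7 and 0.435 TPM in transplanted stroma for Bcl11b, and the groups further down overlapped their neighbours. Ets1 went on with donor cells at a median of 55.09 TPM, CD11b controls at 53.12, CD11b cells of transplanted mice at 51.47, transplanted stroma at 37.14 and control stroma at 33.69. The only neighbouring ranges apart for Ets1 were those of CD11b cells of transplanted mice and transplanted stroma. Satb1 had medians of 27.55 TPM in CD11b cells of transplanted mice and 29.13 in CD11b controls, overlapping host cells and apart from the 18.01 of donor cells, which stood apart from 3.585 in transplanted and 3.452 in control stroma. For Lef1 the order was different: transplanted stroma had a median of 14.41 TPM and control stroma 11.72, overlapping the 10.29 of control CD45.1 cells. Tox also stood highest in stroma, at 2.96 TPM in transplanted and 3.643 in control stroma, ranges that overlapped those of host cells, while donor cells (0.15) lay apart below control cells (1.52). Gata3 and Themis followed control and host cells with stroma, then with donor or CD11b cells, and all neighbouring ranges of both genes overlapped.

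The comparison of donor cells with control CD45.1 cells asked how marrow cells of the mutant graft differed from untransplanted wild-type marrow. No group held grafted wild-type cells, so the mutation, the grafting and the CD45 allele cannot be told apart. All 8 members were lower in donor cells, with a median log2 fold change of -3.57, against -0.0010 over all 13906 genes tested. Of those genes 23% were lower in donor cells at an adjusted p below 0.05 (edgeR's quasi-likelihood test, Benjamini-Hochberg adjustment over all genes tested) and 22.7% were higher. For each of the 8 genes every donor library lay below every control library in TPM. The share of all genes tested with ranges apart in this way was not counted. All 22 T-cell markers were lower as well, and their summed TPM ran from 19.08 to 42.22 in donor libraries, against 219.3 to 482.3 in control libraries. Also lower were 16 of 16 B-cell markers and 9 of 10 NK-cell markers. The tenth, Nkg7, singled out after its value was seen, rose by 0.52 ± 0.09 on the log2 scale (adjusted p = 0.000195), and the NK-cell markers' summed TPM had medians of 294.2 in donor cells and 278.1 in control cells. The part of the members' change that goes with fewer lymphocytes cannot be told apart from a change within T cells.

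The fitted changes of the 6 scarcer genes ran from -6.78 to -3.37, and their order depends on the scale: on log2(TPM + 1), which compresses low values, Themis gave -1.26 and Tcf7 -2.83. Themis was counted 0 to 2 times per library in donor cells, 5 counts in all, against 68 to 114 times in control libraries. In 3 donor libraries it was not counted, and a count of 0 there allows up to 0.163 to 0.174 counts per 1000000 (CPM). The fitted log2 fold change was -6.78 ± 0.35 (SE, adjusted p = 2.93e-10), which for so few counts depends on the fit's prior count. Bcl11b had TPM of 0.03, 0.08 and 0.14 in donor cells (lowest, median and highest of 7) and 1.45, 2.145 and 3.55 in control cells (of 8). Its change was -5.14 ± 0.25 (adjusted p = 1.94e-10), and 2 to 8 counts per donor library stood behind it. Lef1 fell by 4.79 ± 0.37 on the log2 scale (adjusted p = 1.76e-08), with 0.08, 0.38 and 1.55 TPM in donor cells against 7.33, 10.29 and 13.92 TPM in control cells. Lef1 was the most uneven of the 8 between donor libraries after Themis, with 1 to 41 counts and an SD of 109% of the mean TPM. Tox, at 0.04, 0.15 and 0.3 TPM in donor cells and 0.84, 1.52 and 3.63 TPM in control cells, changed by -3.61 ± 0.30 (adjusted p = 3.6e-08).

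Tcf7 and Gata3 had fitted changes close to that of Tox. Tcf7 had 0.9, 1.69 and 2.14 TPM in donor cells against 14.07, 15.76 and 28.0 TPM in control cells, a change of -3.52 ± 0.17 (adjusted p = 1.94e-10). Gata3 had 0.14, 0.37 and 0.99 TPM in donor cells and 1.72, 3.2 and 4.2 TPM in control cells, a change of -3.37 ± 0.26 (adjusted p = 2.03e-08). Satb1 was still read at 13.79, 18.01 and 22.44 TPM in donor cells, against 46.91, 54.37 and 73.66 TPM in control cells, and changed by -1.75 ± 0.11 (adjusted p = 2.25e-09). Ets1 changed least, by -0.92 ± 0.14 (adjusted p = 3.69e-05), with 40.43, 55.09 and 81.13 TPM in donor cells and 94.32, 108.8 and 122.0 TPM in control cells. Donor animal N203 held the highest donor TPM of 6 of the 8 genes, but the highest TMM-scaled CPM of 3 (Ets1, Satb1 and Gata3). Without its library all 8 still passed, with changes from -6.90 for Themis to -1.04 for Ets1.

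Of the 8 members, 6 had an entry in the RefSeq promoter table of build GRCm38.p6, which gives 250 bases before and 50 after each annotated start. The 3 printed here belong to Themis, Bcl11b and Gata3, the matched genes that stayed at or below 0.99 TPM in every donor library. G or C make up 47.3% of the Themis window, 43% of the Bcl11b window and 67.3% of the Gata3 window. Capitals mark matches to any of 5 short motifs, searched on both strands. The core sequence recognised by TCF-1 and LEF-1 was spelled CTTTGA. Zinc-finger factors of the Gata3 family were searched for with the letters AGATAA. For RUNX proteins, partners of many lymphoid factors, the search used TGTGGT. The family of Ets1 itself was represented by the motif CCGGAAG. The E-box, read by basic helix-loop-helix proteins, was spelled CAGCTG. No window held more than 1 match, so none overlapped. The windows are chr10:28668110-28668409 on the plus strand for Themis (the most upstream of 2 starts), chr12:108003365-108003664 on the minus strand for Bcl11b and chr2:9878551-9878850 on the minus strand for Gata3.
Themis: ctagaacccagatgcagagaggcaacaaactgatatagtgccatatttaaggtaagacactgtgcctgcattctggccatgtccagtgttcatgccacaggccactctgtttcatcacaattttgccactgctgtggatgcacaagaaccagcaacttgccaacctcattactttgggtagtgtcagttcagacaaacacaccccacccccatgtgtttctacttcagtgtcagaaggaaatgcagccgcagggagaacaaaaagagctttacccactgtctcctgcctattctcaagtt
Bcl11b: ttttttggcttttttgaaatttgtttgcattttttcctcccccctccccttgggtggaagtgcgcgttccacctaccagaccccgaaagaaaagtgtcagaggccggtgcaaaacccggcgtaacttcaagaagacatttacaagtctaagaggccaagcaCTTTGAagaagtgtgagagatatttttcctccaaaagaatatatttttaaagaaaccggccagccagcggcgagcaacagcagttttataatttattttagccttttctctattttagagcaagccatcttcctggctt
Gata3: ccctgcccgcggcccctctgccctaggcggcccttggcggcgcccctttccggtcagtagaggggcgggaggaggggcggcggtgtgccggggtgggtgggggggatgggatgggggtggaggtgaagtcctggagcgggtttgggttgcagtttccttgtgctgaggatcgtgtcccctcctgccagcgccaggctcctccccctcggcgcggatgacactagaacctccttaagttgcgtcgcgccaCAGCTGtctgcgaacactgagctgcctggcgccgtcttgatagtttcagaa
Bcl11b held 1 match to CTTTGA beginning 89 bases before the start, and 16% of the 32851 promoter windows of this length hold one. Gata3 held 1 match to CAGCTG beginning 1 base before the start, and 16.3% of the windows hold one. Tcf7 held 1 beginning 159 bases before the start used for it, and 2 starts are annotated for that gene. The Tcf7 match follows directly on the letters ATGCCG, in a reading frame without a stop codon up to the window's end. Whether it lies in coding sequence was not tested. The motif of the Gata3 family, in 11.2% of the windows, that of RUNX proteins, in 16.8%, and that of the Ets1 family, in 8.86%, had no match in the windows of the 6 members searched.

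Donor and host cells came from the same 7 mice, so this pair compares grafted mutant cells and resident wild-type cells within one marrow. Here too the mutation, the grafting and the CD45 allele cannot be told apart. In TMM-scaled CPM each of the 8 genes was lower in donor than in host cells in 7 of 7 animals. How many of all genes were lower in 7 of 7 animals was not counted. Of the 8, 7 passed, with a median of -3.47 over the 8 members, and 9.94% of 13662 genes tested were lower. With the animal fitted as a block, 18.5% of genes were lower and 8 of 8 members passed. The donor libraries are those of the comparison above, so the values of the 2 comparisons are not independent.

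Within animals, the CPM of Bcl11b was 12.9 to 65.4 times as high in host as in donor cells, and the ratio for Tcf7 was 4.95 to 10.6. Tcf7 had 6.74, 15.17 and 16.86 TPM in host cells (lowest, median and highest), and its fold change in donor over host cells was -3.08 ± 0.19 (adjusted p = 4.69e-08). Themis gave -6.29 ± 0.44, Bcl11b -4.89 ± 0.30, Tox -3.92 ± 0.38, Lef1 -3.86 ± 0.47 and Gata3 -3.0 ± 0.22, all past the threshold with adjusted p of at most 2.09e-05. Satb1 had 13.79 to 22.44 TPM in donor cells and 24.05 to 48.99 TPM in host cells, ranges that did not meet, and gave -1.11 ± 0.11 (adjusted p = 2.01e-06). Ets1 had 40.43 to 81.13 TPM in donor cells and 70.56 to 101.2 TPM in host cells, with 6 of the 7 donor libraries below the lowest host library. Its change of -0.45 ± 0.15 did not pass without the block (adjusted p = 0.0647) and was -0.48 ± 0.07 with it (adjusted p = 0.000147). Leaving out the donor library of N203 also brought it past the threshold, at -0.57 (adjusted p = 0.00757).

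**Figure D2:**
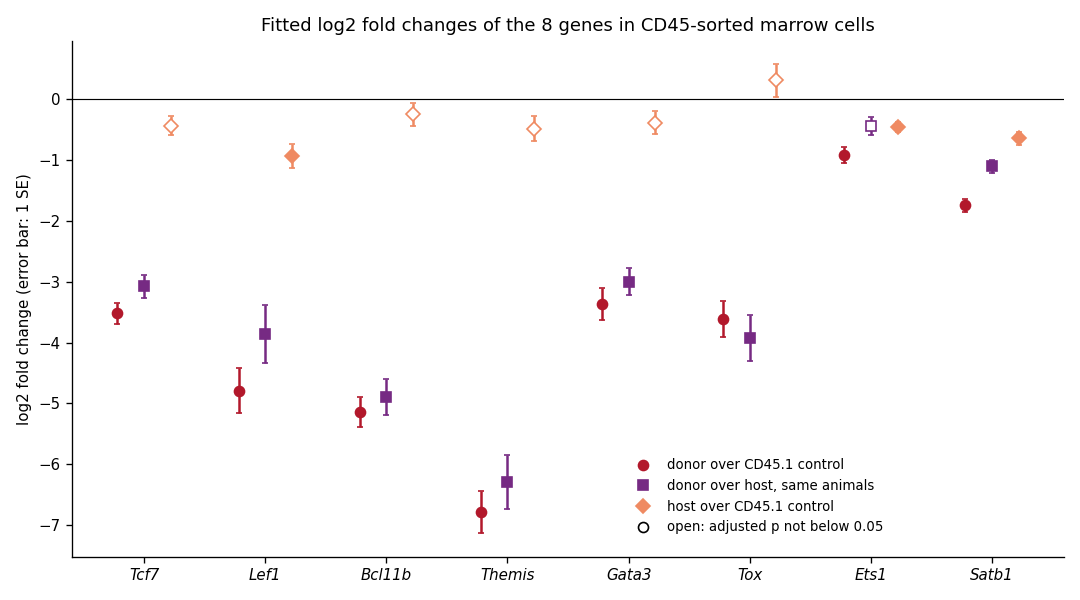
Log2 fold change (y axis) of each of the 8 genes for donor over control cells, donor over host cells and host over control cells, with error bars of 1 SE and open symbols where the adjusted p was not below 0.05. Donor cells lie about 3 or more log2 units below host and control cells for 6 genes, and in the host comparison the 3 filled points are Lef1 (-0.94), Ets1 (-0.47) and Satb1 (-0.65).

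Host cells of transplanted mice, wild type themselves, were set against CD45.1 cells of untransplanted mice to ask what changed around the graft. Lef1, Ets1 and Satb1 fell, while the T-cell genes Tcf7, Bcl11b, Themis and Gata3 were lower without passing and Tox was higher without passing. Against these 3 of 8 members, 7.82% of the 14073 genes tested were lower and 8.61% were higher. The median of the 8 members was -0.45, against 0.0078 over all genes tested. The control libraries are those used for donor cells above.

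Satb1 had 24.05, 38.48 and 48.99 TPM in host cells and 46.91, 54.37 and 73.66 TPM in control cells, with 6 of 7 host libraries below the lowest control. Its log2 fold change was -0.65 ± 0.10 (adjusted p = 0.000837). Ets1, with 70.56, 78.29 and 101.2 TPM in host cells against 94.32, 108.8 and 122.0 TPM in control cells, gave -0.47 ± 0.08 (adjusted p = 0.00153), again with 6 of 7 host libraries below all controls. Lef1 had 1.21, 5.58 and 7.66 TPM in host cells and 7.33, 10.29 and 13.92 TPM in control cells, and gave -0.94 ± 0.20 (adjusted p = 0.00526). Host animal N269 had the lowest host level of 5 of the 8 genes, and without its library the same 3 genes passed, at -0.78 for Lef1, -0.50 for Ets1 and -0.60 for Satb1. These 3 also passed when the day on which mice were euthanised was fitted as a block, at -1.12, -0.45 and -0.70. Tcf7 passed as well in that fit, so 4 of the 8 genes were called lower. Hosts N032 and N005 and controls N093, N288 and N051 shared no day with the other group. The blocked difference therefore rests on the remaining animals. In males alone only Lef1 passed, at -0.89, and in females alone Ets1 and Satb1 passed, at -0.50 and -0.85.

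For the genes that did not pass in host cells, the groups overlapped widely. Tcf7 had 6.74 to 16.86 TPM in host cells and 14.07 to 28.0 TPM in control cells, with 3 of 7 host libraries below all controls and a change of -0.44 ± 0.16 (adjusted p = 0.0723). Tcf7 passed under 4 of the 26 other settings, and its adjusted p ran from 0.0302 to 0.321 over the 26. The 4 were DESeq2 (adjusted p = 0.036), the day as a block, no filter on low counts and leaving out control N093. Themis had medians of 1.45 TPM in host cells and 1.455 TPM in control cells, with a fitted change of -0.49 ± 0.21 (adjusted p = 0.111). Gata3 gave -0.39 ± 0.19 (adjusted p = 0.164) and Bcl11b -0.25 ± 0.19 (adjusted p = 0.385), with medians of 2.51 TPM (Gata3) and 1.97 TPM (Bcl11b) in host cells against 3.2 TPM and 2.145 TPM in control cells. Tox had 0.79, 2.43 and 3.65 TPM in host cells and 0.84, 1.52 and 3.63 TPM in control cells, a change of 0.30 ± 0.27 (adjusted p = 0.471) that was -0.25 in females alone and -0.22 with the day as a block.

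The lymphocyte markers did not move as one in host cells. Of the CD3 chains, the signalling subunits of the T-cell receptor, 0 of 3 passed and their median was -0.0047, against -0.37 for the 22 T-cell markers, with CD3 chain summed TPM of 14.97 to 41.31 in host libraries and 20.34 to 42.34 in control libraries. Of the 10 NK-cell markers 2 fell and 1 rose, with a median of -0.36. Of the 22 T-cell markers 5 fell, among them the lymphocyte adhesion receptor Cd2 (-1.13 ± 0.23, adjusted p = 0.00309), the interleukin-7 receptor gene Il7r (-0.93 ± 0.16, adjusted p = 0.00112) and the homing receptor gene Ccr7 (-1.23 ± 0.24, adjusted p = 0.00313). All 16 B-cell markers fell, with a median of -1.40 and summed TPM of 122.5 to 472.5 in host libraries against 350.8 to 991.1 in control libraries. Lef1, Ets1, Satb1, Il7r and Ccr7 are also used by B-lineage cells, and the part of the B-cell markers' fall in the members' values was not tested.

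**Figure D3:**
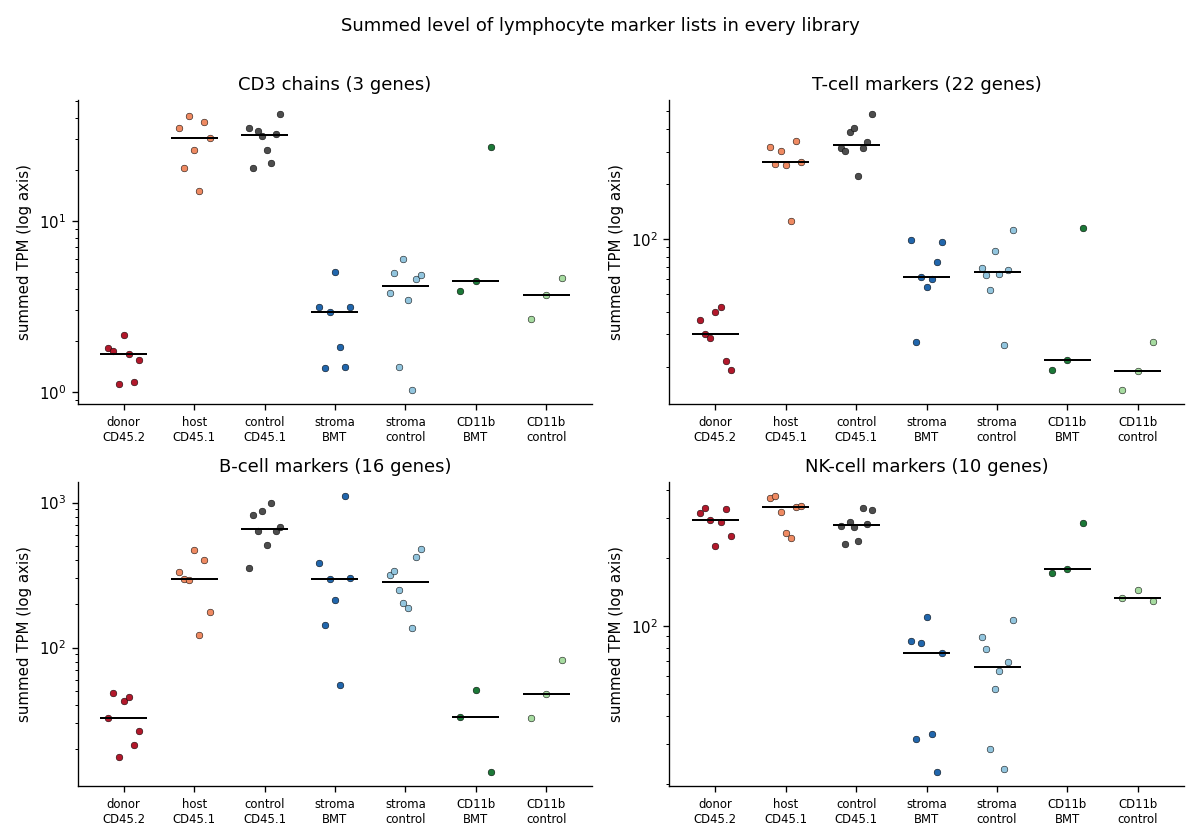
Summed TPM (log axes) of the CD3 chains and of T-cell, B-cell and NK-cell marker lists, 1 point per library and a bar at the group median. Donor cells have the lowest median for the CD3 chains, with a range that overlaps both stroma groups. Host and control cells overlap there, and 1 CD11b library of a transplanted mouse, at 27.13 TPM of CD3 chains, stands above the other 5.

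To set the regulators against the amount of T-cell receptor transcript, each gene's count was divided by the summed counts of Cd3d, Cd3e and Cd3g in the same library. These sums were 18 to 37 in donor libraries, 261 to 622 in host libraries and 333 to 724 in control libraries, so the donor ratios rest on few counts. Each count comes from all cells of a sort, so a ratio is not a level per T cell. In donor over control cells the CD3 chains had a median log2 fold change of -4.91, against -0.92 for Ets1 and -1.75 for Satb1. Higher ratios of Ets1 and Satb1 in donor cells thus restate those changes. The donor ratios of the other members likewise reuse the counts of the donor fits above, and none of the ratios is a separate result. Differences in the log2 ratio were tested by a two-sided exact permutation test over the samples, with p adjusted over the 16 ratios computed. In donor cells the ratio of Ets1 was 7.21 ± 0.45 (SD, n = 7), against 3.83 ± 0.38 in control cells (n = 8), a difference of 3.38 (exact permutation p = 0.000155, adjusted p = 0.000827). Satb1 differed by 2.60 with the same p, the smallest that 6435 arrangements can give, and Tcf7 by 0.82 (exact permutation p = 0.00186, adjusted p = 0.00744) and Gata3 by 0.94 (exact permutation p = 0.00886, adjusted p = 0.0236). Themis went the other way, at -4.61 ± 0.89 in donor cells (n = 7) and -2.46 ± 0.25 in control cells (n = 8), a difference of -2.15 (exact permutation p = 0.000155, adjusted p = 0.000827). With 3 donor libraries at 0 counts of Themis, this size rests on the pseudocount of 0.5 and was -3.35 with 0.1. Bcl11b differed by -0.80 (exact permutation p = 0.0275, adjusted p = 0.044), and Lef1 (-1.11) and Tox (0.60) did not pass. The Bcl11b call held in 8 of 24 alternatives, with adjusted p of 0.00062 to 0.116. It was lost without donor N204, N203 or N279, without any 1 of the 8 controls, and, through the adjustment shared with the host ratios, without host N279, N032, N269, N005 or N204. Divided by all 22 T-cell markers in place of the CD3 chains, the differences of Tcf7, Gata3 and Tox turned to -0.26, -0.14 and -0.48, while Ets1, Satb1, Themis and Bcl11b (-1.88) kept their direction and passed, and Lef1 (-2.19, adjusted p = 0.00595) now passed as well.

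**Figure D4:**
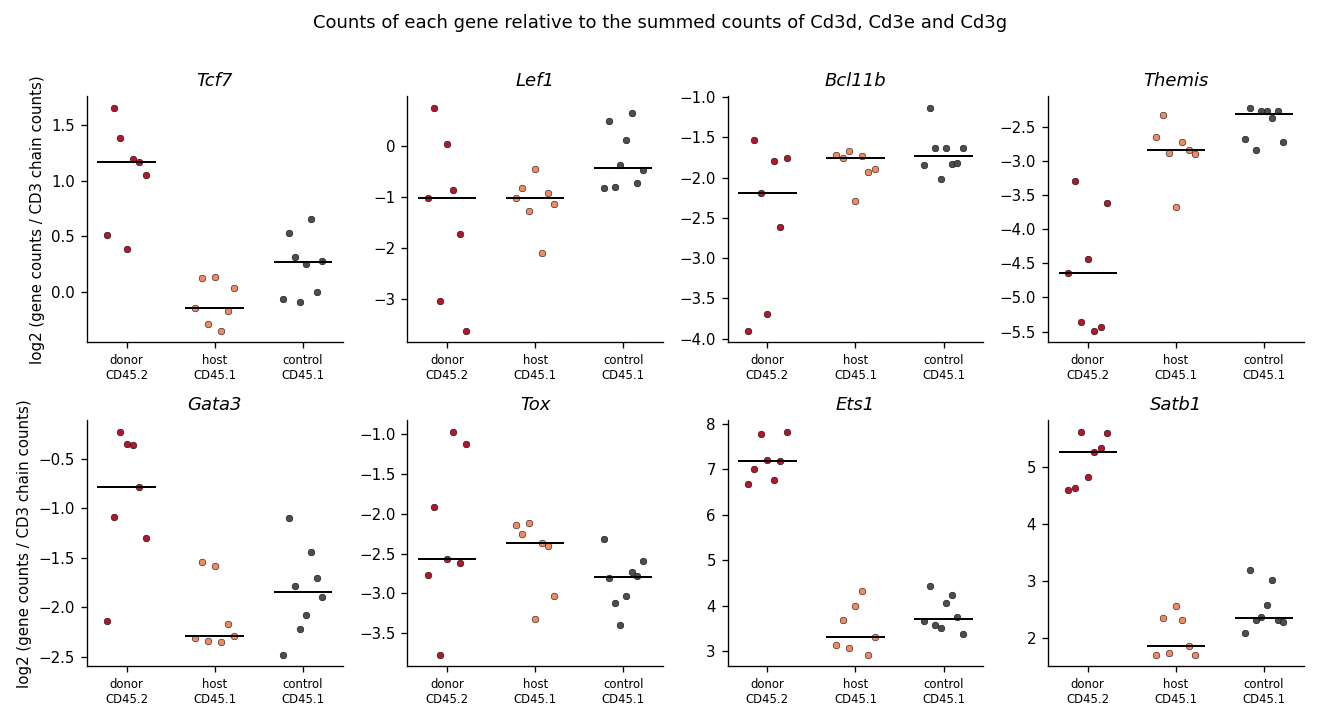
Log2 of each gene's counts over the summed counts of the 3 CD3 chains (y axis), 1 point per library and a bar at the group median, for donor, host and control cells. Donor cells lie above host and control cells for Ets1 and Satb1 and below control cells for Themis, where they overlap host cells, and host and control cells overlap for all 8 genes.

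In host cells the same ratio was lower than in control cells for Lef1 by -0.86 (exact permutation p = 0.0073, adjusted p = 0.0234), for Satb1 by -0.49, for Themis by -0.40 and for Tcf7 by -0.33, each of the last 3 with an adjusted p of 0.044. Ets1 (-0.34), Gata3 (-0.24), Bcl11b (-0.16) and Tox (0.32) did not pass. The 4 calls depend on single libraries: leaving out 1 library at a time gave 0 to 4 calls, with 0 calls without host N269 and 1 call without host N279, N032, N005 or N204 or without control N208, N093 or N002, and 2 without control N288, N051 or N280. Over the 22 T-cell markers in place of the CD3 chains 0 of 8 passed.

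In stroma-enriched cells none of the 8 genes passed between transplanted and control mice, and 1.49% of the 26191 genes tested did in either direction. Lef1 had the largest change, 0.56 ± 0.35 (adjusted p = 0.833), with 3.895, 14.41 and 30.15 TPM in transplanted stroma and 6.465, 11.72 and 20.53 TPM in control stroma. Tox gave -0.28 ± 0.23, and the other 6 lay between -0.18 and 0.33, all with adjusted p of at least 0.931. One library of the transplanted stroma, N032, stood apart, with the lowest transplanted stroma level of 5 genes and the highest of Gata3 and Themis. Ets1 was at 6.95 TPM there and between 30.33 and 47.42 TPM in the other 6. The 8 stromal markers summed to 749 TPM in N032 and to 1288 to 3898 TPM in the other 6. N032 was also the last of the mice with stroma libraries to be euthanised. The part of either in its levels was not tested. The 8 erythroid markers summed to 10630 to 75430 TPM in transplanted stroma and 3039 to 9767 TPM in control stroma, and their part in these values was not tested. The 22 T-cell markers summed to 27.27 to 98.55 TPM in transplanted stroma and 26.38 to 111.8 TPM in control stroma. Without the library of N032, 0 of 8 genes passed, and the changes of Themis, Satb1 and Gata3 turned to -0.12, 0.05 and -0.14.

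Control stroma was set against CD45.1 cells of the same 8 control mice. These sorts differ in library kit and sequencing run, which cannot be told apart from the cell type, and 36.3% of 19824 genes were lower and 53.3% higher in stroma. In stroma 6 members were lower: Satb1 (-4.44 ± 0.13), Tcf7 (-3.94 ± 0.22), Bcl11b (-2.81 ± 0.20), Themis (-2.78 ± 0.20), Gata3 (-2.15 ± 0.24) and Ets1 (-1.88 ± 0.11), all with adjusted p of at most 1.16e-07. Tox was higher, by 0.80 ± 0.21 (adjusted p = 0.00174), with 2.45 to 6.815 TPM in stroma and 0.84 to 3.63 TPM in CD45.1 cells. The median over all genes tested was 0.53 in this fit, and the 0.80 of Tox is to be read against it. Lef1, with 6.465 to 20.53 TPM in stroma and 7.33 to 13.92 TPM in CD45.1 cells, gave -0.42 ± 0.22 (adjusted p = 0.0772) on counts and 0.29 on log2(TPM + 1). It passed as lower in 5 of 27 alternatives: males alone (-1.04, adjusted p = 0.000411), and without the CD45.1 library of N277, N288 or N280 or the stroma library of N280. In females alone Lef1 was 0.20, and Tox, at 0.65 (adjusted p = 0.0635), did not pass. The log2 fold changes above are from fits without the animal as a block. With that block the same 6 members were lower and Lef1 did not pass. Tox was higher there by 0.75 ± 0.21 (edgeR adjusted p = 0.00518). The CD3 chains summed to 1.025 to 6.02 TPM in control stroma and 20.34 to 42.34 TPM in CD45.1 cells.

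CD11b cells, a gate of mostly myeloid cells, had CD3 chain sums of 3.89, 4.45 and 27.13 TPM in transplanted mice and 2.69, 3.7 and 4.67 TPM in controls. Ets1 was read at 50.03, 51.47 and 52.87 TPM in the 3 transplanted mice and at 52.24, 53.12 and 56.23 TPM in the 3 controls, and Satb1 at 24.85, 27.55 and 28.6 TPM against 27.17, 29.13 and 33.76 TPM. Both genes overlapped between the groups. None of the 8 passed in edgeR, nor did any of 15257 genes (0%), although 2506 had an unadjusted p below 0.05, and DESeq2 called 291 genes.

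The other 6 genes were between 0 and 1.46 TPM in CD11b cells, except for Tox in 1 library. Tox had 2.13 TPM in transplanted mouse N129, 0.11 in N187 and 0.1 in N116, against 0.05, 0.09 and 0.09 TPM in the controls. Its log2 fold change of 3.26 ± 0.89 did not pass in edgeR (adjusted p = 0.27) and passed in DESeq2 (adjusted p = 0.0125). Without N129 it was 1.90 (adjusted p = 0.409). The same library held the highest Themis and Bcl11b, at 0.77 and 0.74 TPM, with 80 and 120 counts, and the lowest Lef1, at 0.05 TPM and 4 counts. Its 22 T-cell markers summed to 114.1 TPM, against 14.87 to 27.29 TPM in the other 5 libraries, and its 10 NK-cell markers to 283.6 TPM against 128.5 to 178.7 TPM. Its 16 B-cell markers had the lowest sum of the 6, 13.76 TPM. The T-cell and NK-cell sums, but not the B-cell sum, were high in that library together with Tox, Themis and Bcl11b. The part of T or NK cells in these values was not tested. The NK-cell sum is no measure of NK cells, since in donor cells it did not fall although 9 of 10 markers did. With the counts halved and rounded, an alternative chosen after seeing the data, 0 genes passed, and 4 members (Tcf7, Lef1, Ets1 and Satb1) remained above the filter on low counts.

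A list of 25 further regulators of T-cell development and function was read beside the members. Of the 24 tested, 17 were lower than in control cells and 0 were higher, with a median of -0.55, beside 23% lower over all genes tested. Ikzf3, the lymphoid Ikaros-family factor Aiolos, fell by 4.42 ± 0.23 on the log2 scale (adjusted p = 3.57e-10), with a median of 1.62 TPM in donor cells and 36.03 TPM in control cells. Bach2, a repressor that holds lymphocytes in a resting or naive state, fell by 3.34 ± 0.18 (adjusted p = 3.84e-10), and Eomes, a T-box factor of cytotoxic and NK cells, by 3.63 ± 0.25 (adjusted p = 4.28e-09). In host cells 5 of 24 were lower and 0 higher, with a median of -0.17, beside 7.82% lower over all genes tested. They included Ikzf3 (-1.08 ± 0.18, adjusted p = 0.000944), Id3 (-1.01 ± 0.22, adjusted p = 0.00618), an inhibitor of E proteins, Bach2 (-0.98 ± 0.19, adjusted p = 0.00259) and Foxo1 (-0.66 ± 0.13, adjusted p = 0.00302), which drives Il7r and Ccr7 in naive lymphocytes and is also needed by B cells.

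Of 11 paralogues of the members 8 were tested in donor cells, where 1 was lower and 2 were higher than in control cells, beside 23% lower and 22.7% higher over all genes tested, so the count says nothing particular of the paralogues. Tcf7l2, the relative of Tcf7 used outside lymphocytes, was lower (-1.23 ± 0.22, adjusted p = 0.000235). Gata1, the erythroid GATA factor, rose by 2.01 ± 0.27 (adjusted p = 1.45e-05), with 2.67 to 10.61 TPM in donor cells and 0.86 to 3.33 TPM in control cells, and Gata2, of stem cells and mast cells, by 0.65 ± 0.16 (adjusted p = 0.00318). Ets2 and Themis2, chosen after their values were seen, did not pass. Ets2 stood at medians of 253.0 TPM in donor cells and 289.4 TPM in control cells and Themis2 at 91.05 TPM in donor cells and 110.0 TPM in control cells, levels far above those of Themis. In host cells 0 of the 8 paralogues passed.

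Likeness to other genes was measured as the root-mean-square difference between centred log2(CPM + 0.5) profiles over the 43 libraries, among 14647 genes with a mean of at least 1 CPM. Bcl11b and Themis were each other's nearest gene, 0.41 apart, followed by the Src-family kinase gene Lck and the CD8 chain gene Cd8b1 for Bcl11b and by Cd8b1 and the T-cell adaptor gene Skap1 for Themis. Skap1 was also nearest to Gata3 (0.50), ahead of Epcam and 4930417O13Rik. Tcf7 lay closest to Kbtbd11 (0.50), the T-box factor gene Tbx21 (0.51) and Adgrg5 (0.55). Ets1 and Satb1 had no T-cell marker among their 3 nearest, which were Retreg1, Fxyd5 and Sgpl1 for Ets1 (0.28 to 0.32) and Bicra, Tlr9 and Aff1 for Satb1 (0.39 to 0.45). Lef1 was nearest to Cpm, to Igll1, the surrogate light chain gene of early B cells, and to Akap12, and Tox to Maf, Setbp1 and Serpinb9, at 0.53 to 0.68. The libraries span 3 kinds of sort and 2 library kits, which set much of every profile.

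The transplanted mice of the CD45 sorts had final blood chimerism values of 0.63 to 5.99, for which no unit is given. In edgeR no gene passed for a slope on log2 chimerism in host cells (0% of 14625, with 591 at an unadjusted p below 0.05). Nor did any in donor cells (0% of 13990, with 300). DESeq2 called 3 genes in host and 0 in donor cells. The members' slopes per doubling ran from -0.15 to 0.11 in host cells. In donor cells Bcl11b, Themis and Tox had too few counts to be tested, and Lef1 had the largest slope, 0.71 ± 0.39 (adjusted p = 0.999).

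The difference between the sexes in the change with transplantation was tested as an interaction, and 0 of 8 members passed in host cells, donor cells or stroma. Over all genes 0% passed in host cells, 0.00719% in donor cells and 0% in stroma, with 425, 346 and 745 genes at an unadjusted p below 0.05 and 3, 4 and 1 called by DESeq2. Among the members the smallest unadjusted p of edgeR's test was that of Gata3 in donor cells, 0.0106 (adjusted p = 1), with a difference of -1.33 ± 0.46 for females minus males.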

How the data were processed

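RNA was sequenced from 43 sorted libraries, 37 of CD45-sorted or stroma-enriched cells and 6 of CD11b cells. The authors deposited gene counts and TPM (transcripts per 1000000) for each library. Per the submitters' processing notes, STAR 2.7.3a, featureCounts of Subread 1.6.2 and RSEM 1.3.3 were used with build GRCm39; the roles of these tools for each table, the strand setting and the annotation are not given in the sources used here. Of 56941 gene identifiers 51948 matched a symbol, and 0 sample columns were left unmapped.

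The deposited counts were tested with edgeR 4.0.16 (R 4.3.3): low counts filtered by group, TMM scaling, the quasi-likelihood test with sex as a covariate (the CD11b groups are all male), and Benjamini-Hochberg adjustment over all genes at a threshold of 0.05. Each fit held the groups compared, and ± is the SE unless called SD. The procedure was checked on simulated data. DESeq2 1.42.0, limma 3.58.1 on log2(TPM + 1) and other filters, scalings and blocks were alternatives. Ratios to the CD3 chains used a pseudocount of 0.5. Limits for counts of 0 are 3 counts and cover counting error only.

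Donor and host libraries are paired by animal: the deviations of the same animal's libraries from their group means correlated at 0.198 to 0.612 over 7 animals. Control stroma and CD45.1 controls are paired in the same way (0.0612 to 0.277 over 8 animals). All 8 members are named. From each other list, up to 4 genes with the smallest p in a comparison could be named, and for each member the 3 nearest genes by likeness. The members and lists were chosen with earlier results of these data known. The promoter sequences come from RefSeq on GRCm38.p6, and no coordinate was carried between builds.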

Additional observations from a re-analysis of the deposited data

Results flagged for a closer look

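In 6 of 40 groups of 7 or 8 libraries tested, the highest or lowest TPM stood apart from the rest by Dixon's criterion, which chance meets in about 1 of 20 groups. Host animal N269 had 1.21 TPM of Lef1, against 4.92 to 7.66 TPM in the other host libraries, and 1.14 TPM of Gata3, against 2.33 to 2.88 TPM. Donor animal N203 had 0.99 TPM of Gata3, against 0.14 to 0.5 TPM in the other donor libraries. It also had 0.21 TPM of Themis, against 0 to 0.04 TPM, but this is 1 count (0.0664 CPM), N014 had 2 counts (0.119 CPM), and on counts N203 did not stand apart. The host cells of the same animal had 101.2 TPM of Ets1, against 70.56 to 82.27 TPM in the other host libraries. The transplanted stroma of animal N032 had 6.95 TPM of Ets1, against 30.33 to 47.42 TPM in the other 6.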

How the results depend on the processing

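All 8 members passed in donor against control cells under each of 26 alternatives. In host against control cells males alone gave 1 member in place of 3; in CD11b cells DESeq2 gave 1 in place of 0; over T-cell markers the host ratios gave 0 in place of 4, and 0 to 4 with 1 library left out. The cause was not tested. With the animal as a replicate block Ets1 in donor against host cells was -0.481 and passed, and the block changed no other member's call. In control stroma against CD45.1 cells, Tox did not pass in females (0.6485). Direction turned for these values, none past the threshold in the report unless it is a ratio: Tox in host cells, females -0.2533 and day block -0.2248; in stroma, Ets1 -0.1273 (TPM + 1), -0.1414 (TPM + 0.1) and -0.04142 (males), Gata3 -0.1179 and -0.2384 (TPM + 1 and + 0.1), Bcl11b -0.3621 (females) and -0.06444 (day block), Themis -0.0921 and -0.1623 (the same), Satb1 0.01437 (day block); Lef1 in control stroma against CD45.1 cells, 0.2902, 0.3097 (TPM + 1 and + 0.1) and 0.1988 (females). Slopes turned for Bcl11b in host cells (-0.0005637, RLE scaling) and, without sex, for Satb1 in host cells (0.04707) and Gata3 in donor cells (0.04806). Over the T-cell markers, host ratios turned for Tcf7 (0.046), Bcl11b (0.215), Ets1 (0.0432) and Gata3 (0.134), and donor ratios for Tcf7 (-0.26), Gata3 (-0.136) and Tox (-0.48). With 1 library left out, values ran in stroma from -0.3034 to 0.02403 (Tcf7), -0.03559 to 0.2062 (Bcl11b), -0.1154 to 0.4765 (Themis), -0.001408 to 0.241 (Ets1), -0.1071 to 0.06836 (Satb1) and -0.1386 to 0.346 (Gata3); in CD11b cells from -0.1133 to 0.2985 (Tcf7) and -0.843 to 0.1125 (Lef1); for host slopes from -0.05702 to 0.2496 (Tcf7), -0.112 to 0.1252 (Bcl11b), -0.1472 to 0.3306 (Lef1), -0.004486 to 0.37 (Themis), -0.03657 to 0.1884 (Gata3) and -0.2643 to 0.05199 (Tox); and for the donor slope of Satb1 from -0.4126 to 0.01026.

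Genes called moved by over 1.5 times in host cells (2312) to 479 in males, 121 in females, 1263 and 1229 with limma on TPM (+ 1 and + 0.1) and 1527 without host N014; in donor against control cells (6360) to 3027 in males; in donor against host cells (1928) to 4605 with the block, 1136 in males, 450 in females, 1146 and 1142 with limma; in stroma (391) to 750 with DESeq2, 125 in males, 0 in females, 256 with the day block and 593 without transplanted N032; in CD11b cells (0) to 291 with DESeq2, 59 unfiltered, 2 and 3 with limma, 28 without N187 and 3 without N129; and in control stroma against CD45.1 cells (17772) to 33112 unfiltered. Donor counts of at most 8 for Bcl11b and 2 for Themis limit their fold changes.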
